A study of Mus musculus with 8 samples.

Results

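The genes described here encode the plasminogen activators Plau and Plat, the activator receptor Plaur, the serpins Serpine2, Serpinb2 and Serpinf1, and tissue factor (F3) with its inhibitors Tfpi and Tfpi2. They were taken from the count table by their symbols. All 9 were found among the 55471 genes of the table, each with 1 row, and 8 of the 9 passed the filter on low counts. Tfpi2 did not.

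SV-LECs are an SV40-immortalized mouse line that was established as lymphatic endothelial cells from adventitial tissue of the mesentery. RNA was sequenced from 4 untreated samples and from 4 samples exposed to 10 ng/ml TGFβ1 for 72 h. All samples came from this 1 line, and the study's Methods call the samples of a group technical replicates, so that errors and p-values cover technical variation only. The comparison addressed which transcripts differed between TGFβ1-treated and untreated cells.

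Plasminogen circulates as an inactive precursor and is cut to the protease plasmin by urokinase (the product of Plau) and by tissue plasminogen activator (the product of Plat). Urokinase is held at the cell surface by its receptor, the product of Plaur, and plasmin degrades fibrin and other matrix proteins. Serpins trap proteases in an inactive complex, while tissue factor starts blood coagulation on cells and is held in check by Tfpi, a Kunitz-type inhibitor.

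The untreated libraries held 19182616 to 26077972 counts each and the libraries from TGFβ1-treated cells 18952504 to 26386941. Levels are given as CPM, the counts of a gene scaled to the normalized size of its library. A count of 3 corresponded to 0.113 to 0.162 CPM, which covers counting error only. The label of the line was checked against marker genes. Of 10 endothelial markers, Tie1 and Erg were at 0 in all libraries, and Cdh5 and Emcn had at most 3 counts in any library, whereas Eng and Kdr were expressed. The endothelial markers summed to 79.4 to 86.2 CPM in untreated and to 170 to 178 CPM in treated libraries, and of 5 tested 3 were higher and 1 lower. Most of that sum was Eng, with means of 61.95 CPM in untreated and 142.7 CPM in treated libraries. Egfl7 was lower and Tek was not called. Pecam1, with means of 0.067 and 0.168 CPM, was not tested. Of 6 lymphatic markers, Ccl21a was at 0 and Prox1, Lyve1 and Reln had at most 3 counts, whereas Pdpn and Flt4 were expressed. The lymphatic sums were 344 to 381 and 337 to 348 CPM, mostly Pdpn, with means of 341.7 and 312.5 CPM. Several defining markers of lymphatic endothelium were therefore nearly absent, and the cells are called SV-LECs below. The 4 mesothelial markers summed to 983.4 to 1134 CPM in untreated and to 344 to 411 CPM in treated libraries, and all 4 were lower after TGFβ1. The 7 fibroblast and mural markers summed to 3468 to 4817 CPM and to 6585 to 7681 CPM, respectively. Most of that sum was Col1a1, and of 6 tested 4 were higher, while Pdgfra and Dcn were lower. The 5 leukocyte markers summed to at most 17.6 CPM, the 4 epithelial markers to at most 4.11 CPM. The part of these shifts in the results below was not tested. In bulk RNA, fewer cells of a type and less RNA per cell cannot be told apart.

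The DNA just upstream of the transcription start is shown for 4 of the genes whose transcripts differed between the groups, because they differ in base composition and in recognition sequences. Each line gives the 250 bases before a RefSeq start in GRCm38.p6, read 5′ to 3′ on the strand of the gene. Capitals mark TGANTCA, the site of AP-1 factors, and GGGCGG or its reverse complement CCGCCC, the GC box of Sp1-type factors.
Serpine2, chr1:79858666-79858915, minus strand: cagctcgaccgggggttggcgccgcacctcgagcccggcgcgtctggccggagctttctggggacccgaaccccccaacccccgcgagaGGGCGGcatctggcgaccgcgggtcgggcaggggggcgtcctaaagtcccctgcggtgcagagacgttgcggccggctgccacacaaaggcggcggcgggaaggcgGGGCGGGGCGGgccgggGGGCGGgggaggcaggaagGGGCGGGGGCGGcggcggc
Serpinb2, chr1:107511173-107511422, plus strand: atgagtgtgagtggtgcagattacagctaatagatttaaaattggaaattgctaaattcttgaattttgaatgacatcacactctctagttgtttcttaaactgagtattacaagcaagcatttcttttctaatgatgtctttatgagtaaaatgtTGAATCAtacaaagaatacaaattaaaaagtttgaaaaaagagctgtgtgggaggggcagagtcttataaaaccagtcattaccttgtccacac
Plaur, chr7:24462233-24462482, plus strand: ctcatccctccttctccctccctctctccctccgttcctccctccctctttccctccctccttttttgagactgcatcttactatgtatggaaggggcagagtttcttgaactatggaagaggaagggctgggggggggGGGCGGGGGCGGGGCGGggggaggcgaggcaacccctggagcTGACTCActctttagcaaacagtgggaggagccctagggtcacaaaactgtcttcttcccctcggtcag
F3, chr3:121723287-121723536, plus strand: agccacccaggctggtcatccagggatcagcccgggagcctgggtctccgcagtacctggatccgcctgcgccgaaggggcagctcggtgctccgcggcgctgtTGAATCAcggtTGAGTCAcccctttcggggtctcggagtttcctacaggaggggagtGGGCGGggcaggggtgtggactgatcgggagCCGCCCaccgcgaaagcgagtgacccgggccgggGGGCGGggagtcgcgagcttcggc

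The window of Serpine2 was 78.8% G or C and held 6 GC boxes and no AP-1 sequence. That of Serpinb2 was 32.4% G or C, with 1 AP-1 sequence that began 94 bases before the start, a TATAAA at 29 bases and no GC box. Serpinb2 has another RefSeq start, not shown, from which the same matches lie at 181 and 116 bases. The Plaur window held 1 AP-1 sequence at 69 bases next to 3 GC boxes. In F3, 2 AP-1 sequences lay at 146 and 135 bases, upstream of 3 GC boxes. Among all 32851 windows of the same length, 6.75% held an AP-1 sequence on either strand and 0.338% held 2 or more. A GC box was present in 32.7%, TATAAA in 12.4% and CAGAC, the short box bound by SMAD proteins, in 42.2%. CAGAC occurred once in the Serpine2 window and not in those of Serpinb2, Plaur and F3. Serpinf1 had 2 CAGAC matches in its window and no AP-1 sequence. Neither window of Tfpi held an AP-1 sequence, and 1 of them held 2 CAGAC matches. Of the 3 windows of Tfpi2, 1 held an AP-1 sequence and another 2 CAGAC matches. These matches describe the letters only. The table holds no entry for Plau and Plat.

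TGFβ1-treated SV-LECs had more transcripts of both activators, of the activator receptor, of Serpine2, of tissue factor and, by a small margin, of Tfpi. Serpinb2 transcripts were fewer, and Serpinf1 did not pass the test. In numbers, 6 of the 8 tested genes were higher, 1 was lower and 1 was not called at an FDR under 0.05 (edgeR likelihood ratio test over all 13818 genes tested). Over all tested genes, 75.6% were called, 37.6% higher and 38.0% lower, so that a call by itself did not set these genes apart. The groups did not overlap in 7 of the 8 genes, against 69.8% of all tested genes. The median log2 fold change of the 8 was 0.56, that of all tested genes -0.0064. The changes ranged from -1.95 to 3.20 on the log2 scale, with 3 genes above 1 and 1 below -1, against 1511 and 906 of all tested genes. In a test against an absolute log2 fold change of 1 (glmTreat), 4 of the 8 passed, namely Serpine2, Serpinb2, Plaur and Plat, against 12.2% of all tested genes.

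**Figure D1:**
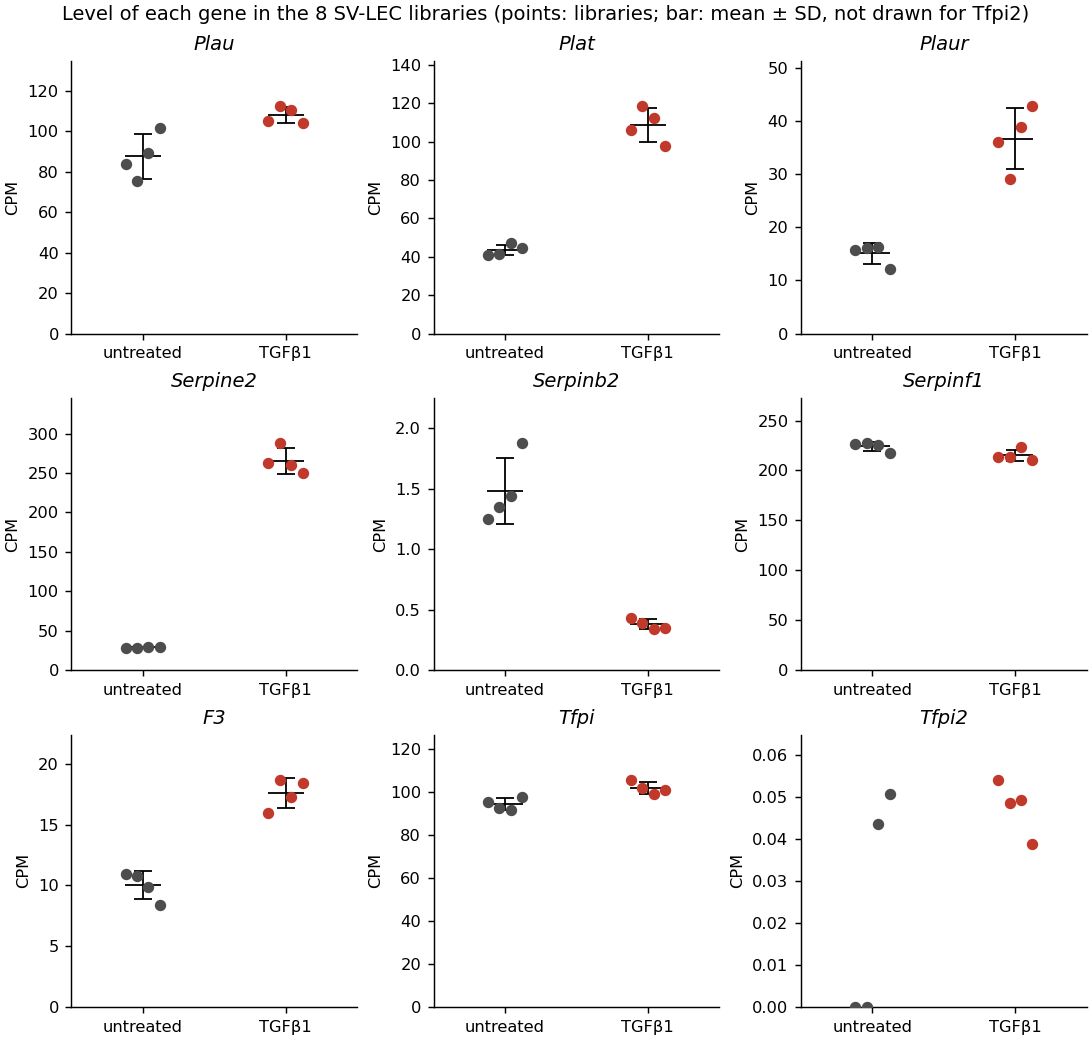
Level of each of the 9 genes in the 8 libraries. The vertical axis of each panel is CPM and starts at 0, points are libraries in the order of their numbers, and bars give the mean ± SD of 4 libraries, except for Tfpi2 with at most 1 count per library. Serpine2 rises from about 28.9 to 265 CPM, Serpinb2 falls from 1.48 to 0.379 CPM, and the groups of Serpinf1 overlap.

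Plau (ENSMUSG00000021822, chr14:20836660-20843385, plus strand, GRCm38), the gene of urokinase, has 11 exons in its longest coding transcript. Its level was 83.6, 75.3, 89.4 and 102 CPM in untreated libraries 1 to 4 and 105, 112, 110 and 104 CPM in the treated ones. The groups came close to each other without overlapping, since the highest untreated library had 101.8 CPM and the lowest treated one 104.2 CPM. The means were 87.5 ± 11.1 and 108 ± 3.98 CPM (SD, n = 4), a 1.23-fold rise with a log2 fold change of 0.30 ± 0.075 (SE; edgeR FDR 9.38e-05). The rise lies below 2-fold by its 95% interval, which runs from 0.16 to 0.45 on the log2 scale. Its call was lost against the log2 fold change of 1 and kept in the other 16 alternatives tried.

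Plat (ENSMUSG00000031538, chr8:22757727-22782844, plus strand, 14 exons) encodes tissue plasminogen activator, the form best known from blood vessel endothelium. It was at 41.1, 41.6, 47.0 and 44.5 CPM in the untreated libraries. After TGFβ1 it was at 106, 118, 112 and 97.6 CPM. Every treated library thus exceeded 2 times the level of every untreated one. The log2 fold change was 1.32 ± 0.066 (SE; FDR 7.16e-85), or 2.49-fold, from 43.5 ± 2.76 to 108 ± 8.83 CPM (SD, n = 4).

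Plaur (ENSMUSG00000046223, chr7:24462484-24475968, plus strand, 7 exons), whose promoter window with an AP-1 sequence is shown above, encodes the urokinase receptor. Untreated libraries had 15.8, 16.0, 16.3 and 12.1 CPM, and treated ones had 36.0, 29.1, 38.9 and 42.7 CPM. Untreated library 4 stood below the other 3 of its group, and treated library 2 below the others of its own, with a wide gap between the groups. The mean rose from 15.1 ± 1.98 to 36.7 ± 5.76 CPM (SD, n = 4), 2.43-fold, with a log2 fold change of 1.28 ± 0.12 (SE; FDR 1.26e-27). Without untreated library 4 the log2 fold change was 1.19 (FDR 7.20e-26). Untreated library 4 was also the untreated library with the most Plau, Serpinb2, Serpine2 and Tfpi and the least F3 and Serpinf1.

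Serpine2 (ENSMUSG00000026249, chr1:79794197-79861180, minus strand, 9 exons) encodes protease nexin-1, a secreted inhibitor of thrombin, urokinase and other serine proteases. Its levels were 28.3, 28.4, 29.4 and 29.6 CPM in the untreated libraries and 262, 288, 260 and 250 CPM in the treated libraries. The untreated values were nearly equal, and the lowest treated library stood far above all of them. The means were 28.9 ± 0.638 and 265 ± 16.0 CPM (SD, n = 4), a 9.16-fold rise and the largest change of the 8 genes. The log2 fold change was 3.20 ± 0.056 (SE; 95% interval 3.09 to 3.31). The FDR was too small to be represented, and the likelihood ratio statistic was 3139. Of all tested genes, 1.72% had a larger absolute log2 fold change, and Serpine2 held place 191 among the rises.

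Serpinb2 (ENSMUSG00000062345, chr1:107511423-107535478, plus strand, 8 exons), whose window with TATAAA is shown above, encodes plasminogen activator inhibitor-2, which is made by monocytes, keratinocytes and other stressed or stimulated cells. It was the gene of the 8 that fell, and it had the lowest counts of them, with 26, 36, 33 and 37 reads in the untreated libraries and 8, 8, 7 and 9 reads in the treated ones. In CPM the values were 1.25, 1.35, 1.44 and 1.88 against 0.433, 0.390, 0.344 and 0.349, with no overlap. The mean level was 3.91-fold lower, 1.48 ± 0.275 in untreated and 0.379 ± 0.0411 CPM in treated libraries (SD, n = 4). The log2 fold change was -1.95 ± 0.29 (SE; FDR 3.55e-13), with a 95% interval from -2.52 to -1.37 that is the widest of the set. It shares 291 exon bases with Serpinb10 on the same strand, and 9% of its stretches of read length, 75 bases, are identical to that gene. Serpinb10 had at most 2 counts in any library.

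Serpinf1 (ENSMUSG00000000753, chr11:75409769-75422701, minus strand, 8 exons) encodes pigment epithelium-derived factor, a secreted serpin that inhibits no protease and is known for blocking vessel growth. It was at 226, 227, 225 and 218 CPM in untreated and 213, 214, 224 and 211 CPM in treated libraries. The highest treated library lay within the untreated range, so the groups overlapped. The log2 fold change was -0.058 ± 0.039 (SE; FDR 0.162), with a 95% interval from -0.13 to 0.018. Scaled by total counts alone, which lowers the median of all tested genes to -0.0735, it passed with -0.13 (FDR 0.00182).

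**Figure D2:**
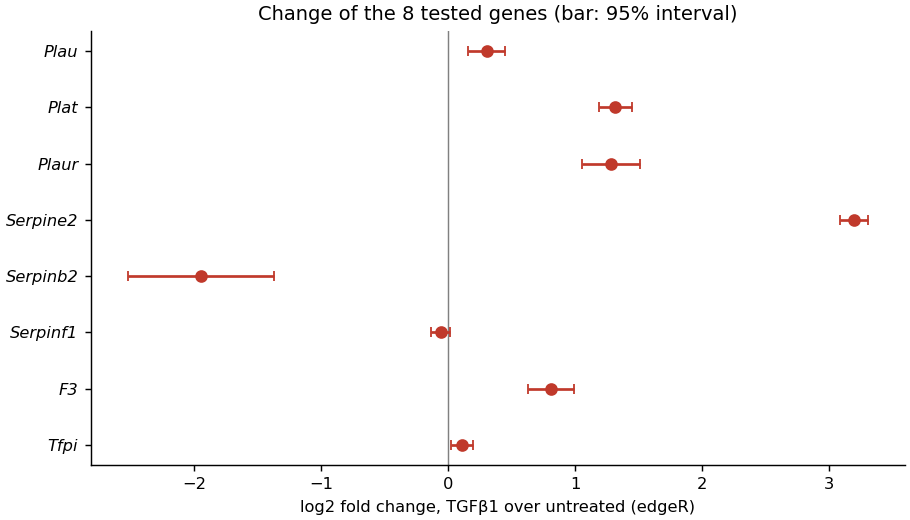
Change of the 8 tested genes after TGFβ1. The horizontal axis is the log2 fold change of treated over untreated libraries from edgeR, points are estimates and bars their 95% intervals. Serpine2 lies at 3.20, Plat and Plaur near 1.3, and the interval of Serpinf1 spans 0.

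F3 (ENSMUSG00000028128, chr3:121723537-121735048, plus strand, 6 exons), the gene with the pair of AP-1 sequences above, encodes tissue factor, the cell-surface cofactor that starts coagulation. Untreated libraries had 10.9, 10.8, 9.91 and 8.42 CPM, and treated ones 16.0, 18.7, 17.3 and 18.4 CPM. All treated libraries were above all untreated ones. The mean rose 1.76-fold, from 10.0 ± 1.15 to 17.6 ± 1.24 CPM (SD, n = 4). The log2 fold change was 0.81 ± 0.094 (SE; FDR 1.69e-17), with a 95% interval from 0.63 to 0.99 that ends just below 2-fold.

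Tfpi (ENSMUSG00000027082, chr2:84432855-84476775, minus strand, 8 exons) encodes tissue factor pathway inhibitor, which endothelial cells make and which blocks the complex that tissue factor forms. Its levels were 95.5, 92.8, 91.9 and 98.0 CPM in untreated and 106, 102, 99.2 and 101 CPM in treated libraries. The lowest treated library, at 99.2 CPM, was barely above the highest untreated one, at 98.0 CPM. The difference, 94.6 ± 2.78 against 102 ± 2.78 CPM (SD, n = 4), had a log2 fold change of 0.11 ± 0.044 (SE; FDR 0.0166). The call did not hold with total-count scaling, where the log2 fold change was 0.043 (FDR 0.373), or without a filter on low counts, where it was 0.080 (FDR 0.155). It was also lost without untreated library 2 (FDR 0.0618), without untreated library 3 (FDR 0.0700) and without treated library 1 (FDR 0.0786).

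Tfpi2 (ENSMUSG00000029664, chr6:3962595-3988919, minus strand, 5 exons), a second Kunitz-type inhibitor that acts on plasmin and other proteases in the matrix, was not detectable at this depth. The untreated libraries had 0, 0, 1 and 1 reads and the treated ones 1 each. A level up to about 0.162 CPM would not be told from these counts.

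Levels of different genes can be compared only per length, and RPKM over the union of exons was used for this. In untreated SV-LECs the order was Serpinf1 (95 RPKM), Plau (37.0), Tfpi (17.3), Plat (6.98), Plaur (5.76), F3 (3.96), Serpine2 (3.49), Serpinb2 (0.630) and Tfpi2 (0.0135). F3 and Serpine2 overlapped between libraries, and the other neighbours in this order did not. Serpinf1 was thus by far the most abundant of the set, and only 2.85% of tested genes had a higher RPKM.

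**Figure D3:**
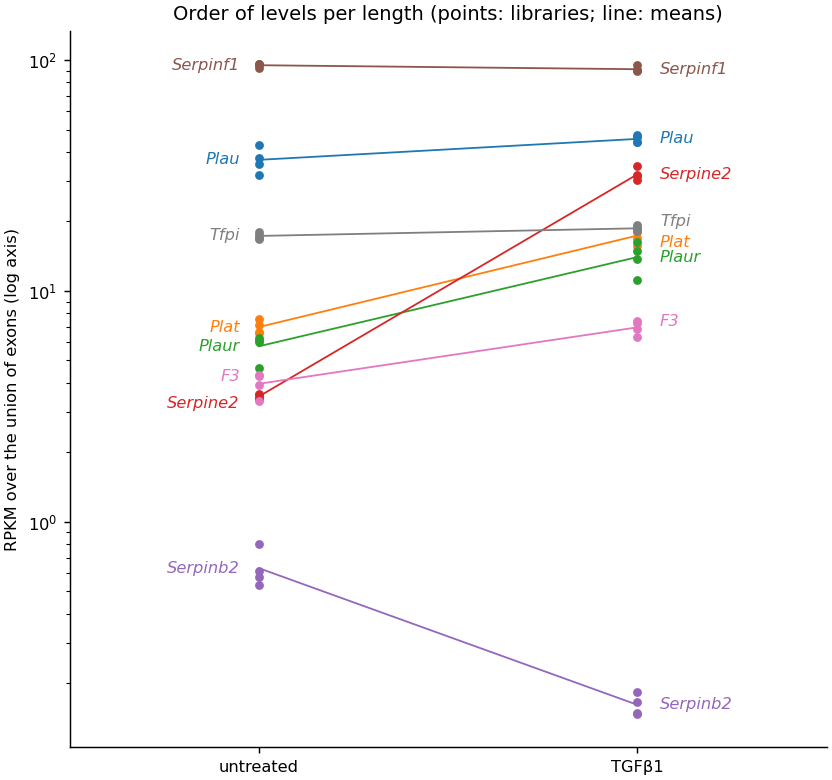
Levels per length in the 2 groups. The vertical axis is RPKM on a log scale, points are libraries and lines join the group means of 8 genes, without Tfpi2. Serpine2 climbs from 3.49 to 32.0 RPKM and crosses F3, Plaur, Plat and Tfpi, while Serpinf1 stays on top at 95 and 91.3 RPKM.

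After TGFβ1 the order was Serpinf1 (91.3 RPKM), Plau (45.6), Serpine2 (32.0), Tfpi (18.7), Plat (17.4), Plaur (14.0), F3 (6.96), Serpinb2 (0.161) and Tfpi2 (0.0273). Serpine2 moved from place 7 to place 3, and the share of tested genes above it in RPKM went from 63.4% to 12.3%. Tfpi, Plat and Plaur were not separated from their neighbours in the treated group, where the ranges of Tfpi and Plat and those of Plat and Plaur overlapped. Serpinb2 had 97.3% of tested genes above it. The length used matters most for Serpine2 and Plat, whose exons together cover 8287 and 6241 bases while their longest protein-coding transcripts have 2210 and 2525 bases. With the latter lengths Serpine2 was at 13.1 RPKM in untreated libraries, above Plaur (10.0) and F3 (5.35), and at 120.0 RPKM in treated libraries, slightly above the 117.5 RPKM of Serpinf1. Plat was then at 17.2 and 43.0 RPKM, next to 37.4 and 46.0 RPKM for Plau.

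Ratios of reads within a library show how the balance of the genes shifted without any scaling between libraries. These pairs were chosen after the values were seen, and the ratios are given as a description. For each read of Plau there were 0.438 to 0.552 reads of Plat in untreated and 0.937 to 1.05 in treated libraries, a shift of 1.01 on the log2 scale. Plaur reads per Plau read went from 0.119 to 0.213 up to 0.260 to 0.410, a shift of 0.97. Relative to Plau, reads of the receptor and of Plat were thus more numerous in every treated library. Reads of Plau per read of Serpine2 went the other way, from 2.65 to 3.44 down to 0.390 to 0.424, a 7.39-fold lower ratio. Tfpi reads per F3 read went from 8.61 to 11.6 down to 5.46 to 6.63, a 1.63-fold lower ratio. The ranges of the groups did not overlap in any of the 4 ratios.

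**Figure D4:**
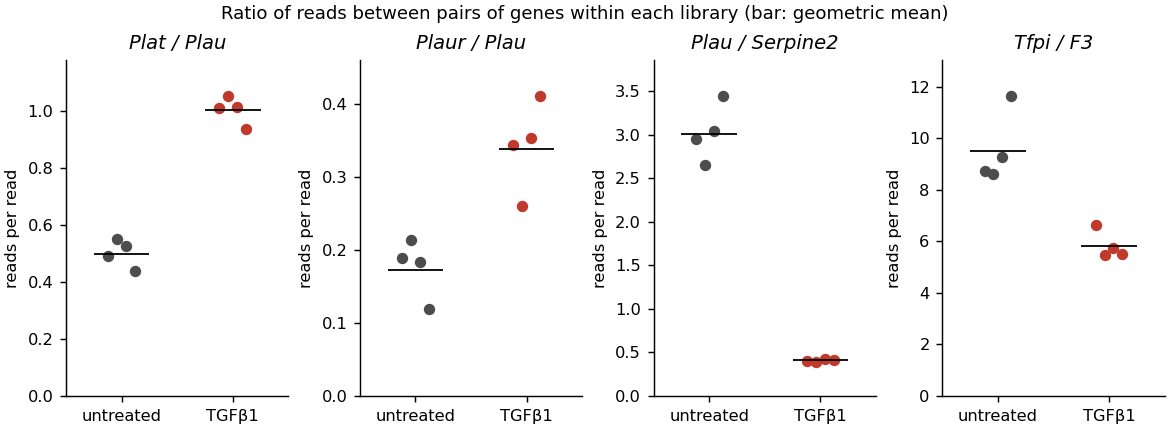
Ratios of reads between pairs of genes within each library. Vertical axes give reads of the first gene per read of the second and start at 0, points are libraries and bars the geometric mean of 4. Plat to Plau rises from about 0.5 to about 1 while Plau to Serpine2 drops from between 2.65 and 3.44 to between 0.390 and 0.424.

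The partners of the system were read from the same fit: proteins that bind plasminogen, receptors that clear activator and inhibitor complexes, and proteases next to plasmin. Of 29 such genes 18 were tested, and 11 were higher, 5 lower and 2 not called (88.9% called, against 75.6% of all tested genes), with a median log2 fold change of 0.56. Plasminogen itself (Plg) had no read in any library, as had Klkb1, Serpina5 and Cpb2. The transcripts of the activators were therefore measured in cells without detectable transcripts of their main substrate.

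Among the clearance receptors, Lrp1, which takes up protease and serpin complexes, rose from 485 ± 24.8 to 1620 ± 133 CPM (SD, n = 4; log2 fold change 1.74 ± 0.059 SE, FDR 2.06e-180). Vldlr and Lrp2 of the same receptor family went the other way. Vldlr fell from 119 to 39.7 CPM (log2 fold change -1.59) and Lrp2 from 37.5 to 12.6 CPM (-1.57). Igf2r, which also binds the urokinase receptor, rose from 205 to 367 CPM (0.84), and Mrc2, a collagen receptor that associates with the urokinase receptor, from 155 to 195 CPM (0.33). Lrpap1, the chaperone of Lrp1 and its receptor family, was not called (-0.099, FDR 0.127).

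Of the genes linked to plasminogen binding, Anxa2 fell from 755 ± 19.3 to 553 ± 23.2 CPM (log2 fold change -0.45 ± 0.042 SE, FDR 2.12e-25) and Eno1, a glycolytic enzyme that also appears on the surface, from 288 to 242 CPM (-0.25). S100a10, the partner of Anxa2, was called higher with 131 and 150.0 CPM (0.19, FDR 6.93e-04), although the libraries of the groups overlapped. Plgrkt was not called (0.087, FDR 0.0840). The binding proteins hence did not move in 1 direction.

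The named protease and matrix genes of the list were higher after TGFβ1. St14, the membrane protease matriptase that can cut the urokinase precursor, went from 2.92 ± 0.541 to 43.1 ± 2.13 CPM (log2 fold change 3.88 ± 0.11 SE). The metalloprotease Mmp9 went from 0.420 ± 0.171 to 16.9 ± 2.53 CPM (5.28 ± 0.26 SE, FDR 5.78e-159), and Mmp3 from 22.4 to 39.0 CPM (0.80). Thbs1, a matrix glycoprotein that binds plasmin and plasminogen, went from 402 ± 25.7 to 2108 ± 90.8 CPM (2.39), and Sdc1, a heparan sulfate proteoglycan, from 158 to 351 CPM (1.15).

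**Figure D5:**
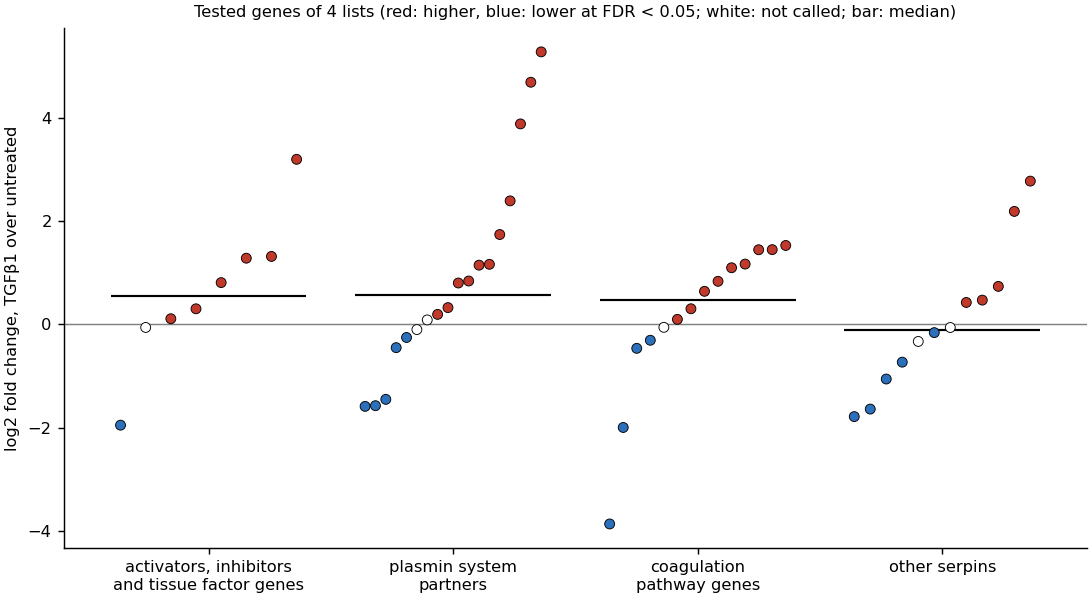
Log2 fold changes of the tested genes in 4 lists. The vertical axis is the log2 fold change of treated over untreated libraries, each point is a gene, red is higher, blue lower and white not called at an FDR under 0.05, and bars are medians. The medians are 0.56 for the described genes and for the plasmin partners, 0.47 for the coagulation genes and -0.11 for the other serpins.

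The coagulation genes around F3 and Tfpi were described in the same way. Of 32 genes 31 were in the table and 14 were tested, of which 9 were higher, 4 lower and 1 not called (92.9% called, against 75.6% of all tested genes), with a median log2 fold change of 0.47. There were 10 genes without a read in any library, among them F2, F7, F9 and F10, the liver-made proteases that tissue factor acts through. Pros1, the protein S gene and a cofactor of both protein C and Tfpi, rose from 121 ± 3.21 to 330 ± 13.7 CPM (SD, n = 4; log2 fold change 1.45 ± 0.044 SE, FDR 2.01e-232). Gas6, its relative, rose from 178 to 277 CPM (0.64). Ggcx and Vkorc1, the enzymes of the vitamin K cycle that such proteins need, rose from 31.8 to 71.6 CPM (1.17) and from 12.1 to 25.98 CPM (1.10).

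On the anticoagulant side, Procr, the protein C receptor, rose from 31.8 to 56.6 CPM (0.83, FDR 5.13e-58), while Thbd, thrombomodulin, fell from 26.4 ± 0.648 to 21.4 ± 1.85 CPM (-0.31 ± 0.067 SE, FDR 1.09e-05). Anxa5, which covers the phospholipid that coagulation needs, rose from 261 to 322 CPM (0.30). F2r, the thrombin receptor, had 168 and 180.4 CPM (0.098, FDR 0.0160). The other 3 lower genes of the list had under 10 CPM in both groups and are named after their values were seen. Serpind1, heparin cofactor II, an inhibitor of thrombin, went from 1.98 ± 0.415 to 0.136 ± 0.121 CPM (SD, n = 4), with 0 to 5 reads per treated library (-3.86 ± 0.47 SE, FDR 4.46e-29). The Kunitz-type inhibitors Spint2 and Spint1 fell from 9.86 to 2.44 CPM (-1.99) and from 8.34 to 6.04 CPM (-0.46).

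Other serpins did not share a direction. Of 37 genes 12 were tested, 5 were higher, 5 lower and 2 not called (83.3% called, against 75.6% of all tested genes), with a median log2 fold change of -0.11. The strongest of the named rises was Serpinb1a, an intracellular inhibitor of neutrophil proteases, from 4.50 ± 0.566 to 30.9 ± 3.86 CPM (2.77 ± 0.12 SE, FDR 7.87e-126). Serpini1, neuroserpin, an inhibitor of tissue plasminogen activator, went from 14.2 ± 0.936 to 64.8 ± 2.03 CPM (2.19 ± 0.062 SE, FDR 1.91e-285). Serping1, the inhibitor of complement C1, fell from 22.0 ± 2.23 to 10.6 ± 0.380 CPM (-1.06 ± 0.090 SE, FDR 1.29e-31). Serpinh1, the collagen chaperone, was the most abundant serpin of the list by reads, with 1936 ± 157 and 1734 ± 157 CPM, and its groups overlapped (-0.16, FDR 0.0306).

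Serpinb6a rose from 196 to 271 CPM (0.47), Serpinb9 from 43.0 to 57.6 CPM (0.43) and Serpinb9b from 6.51 to 10.8 CPM (0.74), whereas Serpinb6b, with 270.3 and 260 CPM, was not called (-0.059, FDR 0.190). These clade B genes have close copies, so the split of reads between them is uncertain.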

How the data were processed

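RNA of 8 SV-LEC samples was sequenced as 75-base single-end reads from stranded poly(A) libraries. The authors deposited raw counts of reads per gene, without normalization. The submitters' processing notes name bcl2fastq 2.20.0.422, STAR 2.7.3a, featureCounts 1.5.1 and the build GRCm38/mm10. The annotation release and the use of strand in counting are not given in the sources used here.

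Groups came from the sample titles. The comparison was made with edgeR 4.0.16 in R 4.3.3: filterByExpr, TMM, estimateDisp, glmFit and glmLRT, without a replicate term, and Benjamini-Hochberg FDRs over 13818 genes. The likelihood ratio test is the one the study used. The steps were also run on simulated counts in which a small share of genes changed, with rises and falls mixed. In these data 75.6% of tested genes were called, so that run does not test the scaling under such wide change. Alternatives were the quasi-likelihood test, DESeq2 1.42.0, its size factors, total-count scaling, other filters, an FDR of 0.01, glmTreat, a replicate block and each library left out. Within groups, the 12 pairs of libraries differed beyond counting noise (chi-square per degree of freedom 2.37 to 7.84), so none was taken for a duplicate.

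RPKM used the TMM library sizes and exon lengths from GENCODE M21, which matched 55144 genes. Promoter windows came from RefSeq on GRCm38.p6 for 7 of the 9 genes. Ratios and the lengths of coding transcripts were added after the data were seen. The genes and lists were chosen with earlier results of these data known. All 9 genes are named. From the other lists, genes given with values have a mean of at least 10 CPM in a group. Exceptions named after their values were seen are marked as such. Not every gene of the system is reported here.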

Additional observations from a re-analysis of the deposited data

Results flagged for a closer look

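Plaur in untreated library 4, at 12.1 CPM, was the lowest of its group and lay apart from the other 3 untreated libraries, whose values were 15.8 to 16.3 CPM. Its gap to the nearest library was 0.874 of the range of the group, above Dixon's critical value for 4 samples. In all, 16 sets of 4 libraries (8 genes in 2 groups) were checked and 1 was outside, where chance gives about 1 in 20. The sets share the same libraries, so they are not independent. The pairs of untreated library 4 with untreated libraries 1 and 2 had the highest chi-squares per degree of freedom of all 12 pairs, 7.82 and 7.84. Without this library the log2 fold change of Plaur was 1.19 in place of 1.28.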

How the results depend on the processing

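Serpine2, Serpinb2, Plaur and Plat kept their direction and their call under all 17 alternatives, and none of the 8 fitted genes reversed. Plau and F3 lost the call only against a log2 fold change of 1. Tfpi lost it in 7 of 17, and Serpinf1 gained one under total-count scaling. Tested against a log2 fold change of 1 (glmTreat), 4 of the 8 genes, 9 of the plasmin partners, 4 of the coagulation genes and 4 of the other serpins passed, in place of 7, 16, 13 and 10, and 12.2% of all tested genes passed. The number of the 8 genes called was between 6 and 7 when each library was left out in turn.

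No pairing of the libraries by the numbers in the titles was seen in expression. Same-numbered deviations from the group means correlated at -0.19, -0.089, -0.040 and -0.31, and no library matched its own number best. Whether same-numbered samples were handled together cannot be read from this. With a replicate block 7 genes were called as before, and the FDR of Tfpi was 0.0425. The block gave 16 plasmin partners, 13 coagulation genes and 9 other serpins, without Serpinh1 (FDR 0.0579).

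Total-count scaling lowered the share of higher genes among all calls from 49.7% to 44.0%. Depth limited Serpinb2, with 7 to 9 reads per treated library, and left Tfpi2 untested.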
